A study of Mus musculus with 9 samples.

Results

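Fc receptors bind the constant part of antibodies, and together with related receptors of myeloid cells they signal through a short tyrosine motif called ITAM (immunoreceptor tyrosine-based activation motif). Most activating receptors carry no ITAM of their own and borrow it from a small adaptor, the common gamma chain (Fcer1g) or DAP12 (Tyrobp). When a receptor is engaged, Src family kinases phosphorylate the ITAM, the kinase Syk docks on it, and the cell can take up coated particles, make reactive oxygen and release cytokines. Receptors with the opposing ITIM motif recruit phosphatases and dampen this signal. In wounds these genes are known mainly from macrophages, neutrophils and mast cells.

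The set held 10 genes, Fcgr1a, Fcgr2a, Fcgr2b, Fcgr3a, Fcer1g, Tyrobp, Cd300lf, Syk, Lilrb4 and Pilra, taken by gene name from a table of 28370 features. The genes were chosen on measured values, because Fcgr2a and Cd300lf were among the smallest p-values of treated against untreated diabetic ulcers (ranks 8 and 11 of 15600 tested genes). Values of that contrast are therefore given as a description, with no test. Of the 10 genes, 9 were found and all 9 passed the filter on low values (at least 0.5 FPKM, fragments scaled to gene length and to the fragments of the library, in at least 3 of the 9 libraries). In 8 of them all 9 libraries reached 0.5 FPKM. Cd300lf reached it in 7, of which only 1 was a diabetic saline library. Pilra was not analysed here.

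RNA was sequenced from skin of ulcers on day 21, in 3 groups of 3 libraries that the labels number as biological replicates. Ulcers of diabetic animals given platelet-rich plasma (PRP, plasma with concentrated platelets) are called PRP ulcers here. Diabetic ulcers injected with saline are called diabetic saline ulcers, and ulcers of animals without diabetes, also injected with saline, are called non-diabetic ulcers. All 3 groups were injected with 0.5 ml on days 1, 7, 14 and 21. The series design describes rats and every identifier in the table is a rat one, while the labels name mouse. The labels do not say how diabetes was induced or whether animals were pooled, so p-values measure the spread between these libraries.

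Read depth is not given in the table, and the FPKM of a library summed to 702718 to 728332 in PRP ulcers, 574588 to 676150 in diabetic saline ulcers and 564078 to 608331 in non-diabetic ulcers. All 8 fibroblast and 15 macrophage markers looked for were in the table, and 15 of 18 keratinocyte and hair genes, of which Loricrin was listed at 0 in some library. A keratinocyte and hair score, the mean log2(FPKM + 1) of 15 genes, was 6.09 to 7.38 in PRP ulcers and 5.99 to 8.15 in diabetic saline ulcers. It was 4.88, 6.92 and 1.88 in non-diabetic replicates 1 to 3, so that replicates 1 and 3 stood apart from the other 7 libraries. Without both, limma called 0 of 15266 tested genes in diabetic saline against non-diabetic ulcers (982 at an unadjusted p under 0.05), so no call given below for that comparison, of a single gene or in a list, is made without them. The median of the 9 genes, Fcgr2a and Lilrb4 are also given without them, and other marker and pathway values are from all 9 libraries. In whole tissue, fewer cells of a type and less RNA per cell cannot be told apart.

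Of the receptors that bind IgG and activate the cell, Fcgr1a and Fcgr2a were lowest in diabetic saline ulcers with no overlap, and Fcgr3a overlapped between groups. Fcgr1a (ENSRNOG00000021199, chromosome 2, 183851077 to 183859994), the high-affinity IgG receptor, had 26.6, 20.4 and 21.8 FPKM in PRP ulcers, 14.7, 5.60 and 11.3 FPKM in diabetic saline ulcers and 52.5, 33.0 and 61.5 FPKM in non-diabetic ulcers. No library of one group overlapped another group. Against non-diabetic ulcers, Fcgr1a fell in diabetic saline ulcers by a log2 change of -2.16 (SE 0.34, adjusted p = 0.0308, limma), and it differed by -1.03 in PRP ulcers without passing (adjusted p = 0.176).

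Fcgr2a, a low-affinity IgG receptor, was the most abundant Fc gamma receptor in each of the 9 libraries. It had 69.7, 84.4 and 64.7 FPKM in PRP ulcers, 32.9, 17.1 and 21.7 FPKM in diabetic saline ulcers and 165, 95.9 and 200.1 FPKM in non-diabetic ulcers. The 3 groups did not overlap, with diabetic saline lowest and non-diabetic highest. The gene fell in diabetic saline against non-diabetic ulcers (log2 change -2.62, SE 0.31, adjusted p = 0.0308). In PRP against non-diabetic ulcers the difference was -1.01 (SE 0.31, adjusted p = 0.166).

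The name Fcgr2a stood on 2 rows of chromosome 13, both on the minus strand, and their FPKM were summed. The larger, ENSRNOG00000046663 (83280790 to 83484920), had 53.7, 68.0 and 49.2 FPKM in PRP ulcers, 25.2, 11.1 and 16.9 FPKM in diabetic saline ulcers and 122, 73.6 and 155 FPKM in non-diabetic ulcers. The smaller, ENSRNOG00000049422 (83280784 to 83295967), had 16.0, 16.3 and 15.4 FPKM in PRP ulcers, 7.62, 5.95 and 4.78 FPKM in diabetic saline ulcers and 42.5, 22.3 and 45.1 FPKM in non-diabetic ulcers. Both rows thus showed the same order with no overlap. Another row at this locus has no gene name (ENSRNOG00000058500, 83280790 to 83484920), and it stood at 1.46 to 3.3 FPKM in PRP ulcers, 0.019 to 1.2 FPKM in diabetic saline ulcers and 3.58 to 5.19 FPKM in non-diabetic ulcers. These rows overlap, and Fc gamma receptor genes resemble each other in sequence, so the split of reads among them is uncertain.

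Fcgr3a (ENSRNOG00000024382, chromosome 13, 83249872 to 83259921), a low-affinity activating receptor that signals through the gamma chain, had 11.9, 3.63 and 5.35 FPKM in PRP ulcers, 1.36, 0.690 and 7.16 FPKM in diabetic saline ulcers and 5.77, 7.15 and 1.81 FPKM in non-diabetic ulcers. The groups overlapped in every comparison, and replicates of a group lay far apart, as in diabetic saline ulcers. Neither difference against non-diabetic ulcers passed, with log2 changes of -0.75 in diabetic saline ulcers (SE 0.66, adjusted p = 0.428) and 0.43 in PRP ulcers (SE 0.66, adjusted p = 0.739).

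**Figure D1:**
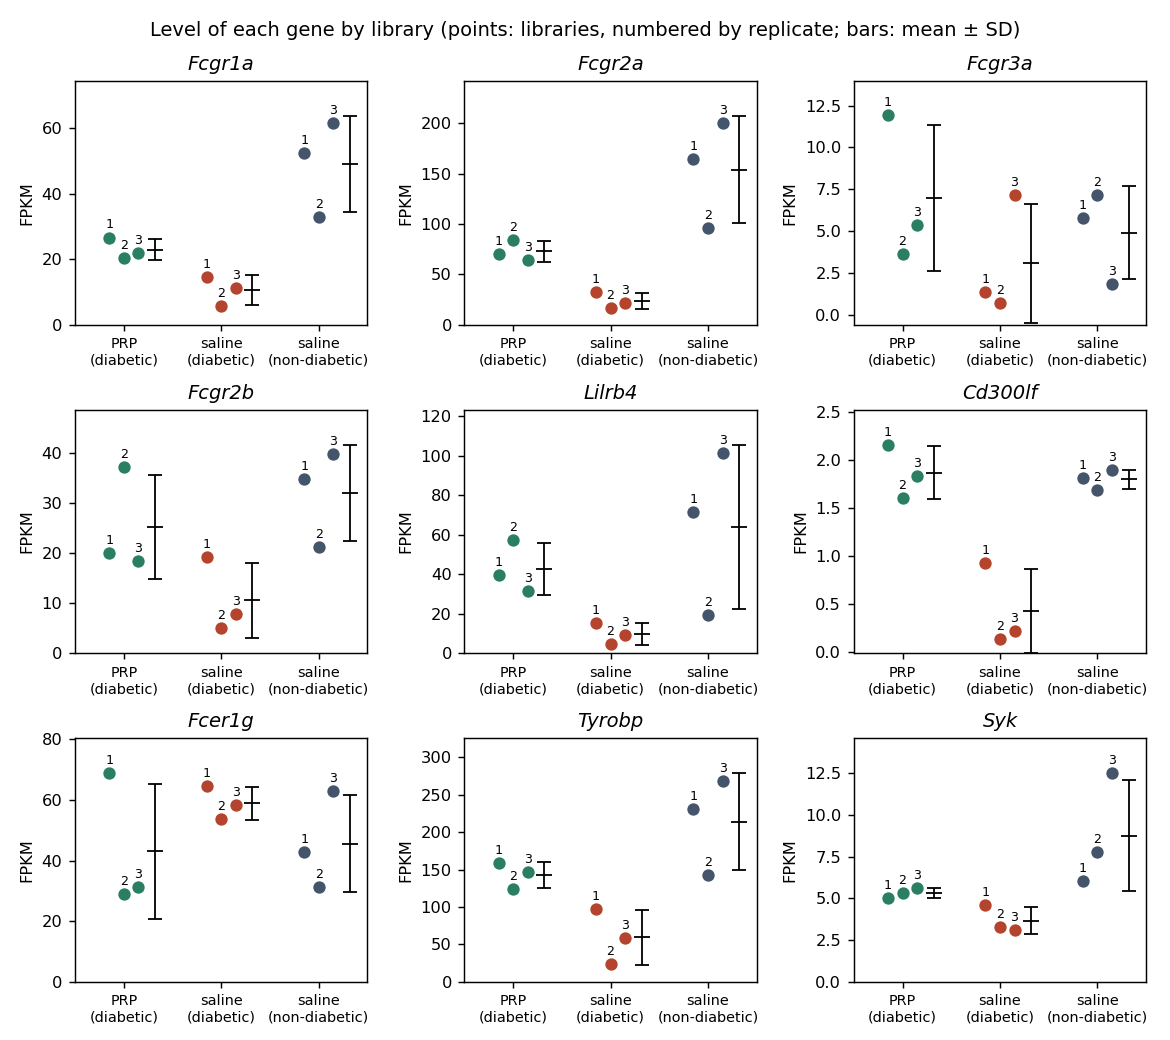
FPKM of the 9 genes (vertical axis of each panel, FPKM) in PRP, diabetic saline and non-diabetic ulcers. Points are libraries labelled with the replicate number, and bars beside them are the mean ± SD of 3 libraries. Fcgr2a, with PRP libraries at 64.7 to 84.4, separates the 3 groups, while Fcgr3a and Fcer1g do not.

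Inhibitory receptors of the set followed the same order of group means as Fcgr2a, with the exception of Cd300lf, whose PRP mean lay just above the non-diabetic one. Fcgr2b (ENSRNOG00000046452, chromosome 13, 83193163 to 83207778), the inhibitory IgG receptor with an ITIM, had 20.1, 37.2 and 18.5 FPKM in PRP ulcers, 19.2, 5.02 and 7.75 FPKM in diabetic saline ulcers and 34.9, 21.3 and 39.9 FPKM in non-diabetic ulcers. PRP libraries overlapped both other groups. Against non-diabetic ulcers the difference was -1.65 in diabetic saline ulcers (SE 0.46) and missed the threshold (adjusted p = 0.0559). In PRP ulcers it was -0.35 (adjusted p = 0.693).

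Lilrb4 (ENSRNOG00000027811, chromosome 1, 69805250 to 69810660), a leukocyte immunoglobulin-like receptor known in human myeloid cells as inhibitory, had 39.4, 57.2 and 31.6 FPKM in PRP ulcers, 15.6, 4.88 and 9.0 FPKM in diabetic saline ulcers and 71.3, 19.4 and 101 FPKM in non-diabetic ulcers. Every diabetic saline library lay below every other library, whereas non-diabetic replicate 2 lay below all PRP libraries. The gene fell in diabetic saline against non-diabetic ulcers (log2 change -2.43, SE 0.60, adjusted p = 0.0445). The PRP difference of -0.33 against non-diabetic ulcers did not pass (adjusted p = 0.789), and it was 1.06 without non-diabetic replicates 1 and 3.

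Cd300lf (ENSRNOG00000021424, chromosome 10, 100359943 to 100376041), an ITIM-bearing receptor of myeloid cells that binds lipids, was the scarcest gene of the set. It had 2.16, 1.61 and 1.84 FPKM in PRP ulcers, 0.925, 0.133 and 0.213 FPKM in diabetic saline ulcers and 1.81, 1.69 and 1.90 FPKM in non-diabetic ulcers. The diabetic saline libraries lay below all others, while PRP and non-diabetic libraries overlapped. Cd300lf fell in diabetic saline against non-diabetic ulcers (log2 change of FPKM + 1 -1.02, SE 0.21, adjusted p = 0.0357), and at this level the pseudocount of 1 shrinks the change, which was -2.17 with a pseudocount of 0.1. In PRP against non-diabetic ulcers it was 0.03 (SE 0.21, adjusted p = 0.950). The Cd300lf row lies within Rab37 on the other strand, which stood at 0.215 to 0.796 FPKM.

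Among the adaptors, Tyrobp (ENSRNOG00000020845, chromosome 1, 85672994 to 85676848), which carries the ITAM for receptors such as Trem2, had the highest mean level of the set. It had 159, 124 and 146 FPKM in PRP ulcers, 97.1, 23.3 and 58.5 FPKM in diabetic saline ulcers and 231, 143 and 269 FPKM in non-diabetic ulcers. Diabetic saline libraries lay below all others, and non-diabetic replicate 2 lay within the PRP range. Tyrobp fell in diabetic saline against non-diabetic ulcers (log2 change -1.99, SE 0.46, adjusted p = 0.0406), and the PRP difference of -0.54 against non-diabetic ulcers did not pass (adjusted p = 0.538).

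The other adaptor, Fcer1g (ENSRNOG00000024159, chromosome 13, minus strand, 83649449 to 83671443), was the one gene whose mean was highest in diabetic saline ulcers. It had 68.8, 29.1 and 31.1 FPKM in PRP ulcers, 64.7, 53.8 and 58.2 FPKM in diabetic saline ulcers and 42.8, 31.2 and 63.0 FPKM in non-diabetic ulcers. The groups overlapped, and neither difference against non-diabetic ulcers passed, with 0.41 in diabetic saline ulcers (SE 0.35, adjusted p = 0.415) and -0.14 in PRP ulcers (SE 0.35, adjusted p = 0.855). The Fcer1g row overlaps other rows of the table, so the split of reads at this locus is uncertain and the Fcer1g values carry that limit.

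Syk (ENSRNOG00000012160, chromosome 17, 12604619 to 12661410), the kinase that binds phosphorylated ITAMs, had 5.02, 5.33 and 5.61 FPKM in PRP ulcers, 4.58, 3.3 and 3.08 FPKM in diabetic saline ulcers and 6.02, 7.79 and 12.5 FPKM in non-diabetic ulcers. The 3 groups did not overlap. Syk fell in diabetic saline against non-diabetic ulcers (log2 change -1.03, SE 0.24, adjusted p = 0.0415), while the PRP difference of -0.58 against non-diabetic ulcers (SE 0.24) did not pass (adjusted p = 0.233).

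In all, 6 of the 9 genes fell in diabetic saline against non-diabetic ulcers, a comparison that shares its diabetic saline libraries with the contrast that chose the genes. That choice can favour lower diabetic saline values, and the p-values of Fcgr2a and Cd300lf here are not independent of it. The counts of the 9 genes beside all genes are therefore a description, and nothing is read from their excess. Over all 15600 tested genes, 7.16% were called and lower. The diabetic saline libraries lay wholly below the non-diabetic ones in 7 of the 9 genes, against 19.6% of all tested genes. The median log2 change of the 9 genes was -1.65, beside 0.045 over all tested genes. All 8 genes below 0 kept their sign in each of 17 other settings of the fit. The calls, however, depended on single libraries and on the settings. With no filter, or with only the 6 libraries compared, 0 of the 9 were called. PRP libraries enter this comparison only through the shared spread and the choice of tested genes. None of the 9 was called without PRP replicate 1, PRP replicate 2, diabetic saline replicate 2, diabetic saline replicate 3, non-diabetic replicate 1 or non-diabetic replicate 3, and 2 were called without PRP replicate 3. Without diabetic saline replicate 1 or non-diabetic replicate 2, 7 were called. The genes called and lower over all tested genes were then 1730 of 15491 and 1966 of 15500, in that order. Leaving out replicates 1 and 3 of the non-diabetic ulcers together, which leaves 1 non-diabetic library assumed to vary like the others, the median was -1.13 and Fcgr2a was at -2.01 (adjusted p = 0.757). With the keratinocyte and hair score as a covariate the median was -1.28 and no gene was called (the smallest adjusted p was 0.263, for Fcgr1a and Fcgr2a). Lilrb4 was at -1.04 without those replicates and at -1.28 with the covariate, Tyrobp at -1.28 with the covariate, and Syk at -0.63 with the covariate.

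In PRP against non-diabetic ulcers 0 of the 9 genes passed in limma. An unadjusted p under 0.05 was found for 3 of them, and for 3182 of all 15600 tested genes. Over all tested genes 1 was called (0.00641%), a gene named AC105648.6, which had 9.95, 7.92 and 6.81 FPKM in PRP ulcers and 0.415, 0.582 and 0.703 FPKM in non-diabetic ulcers. PRP libraries lay wholly below non-diabetic ones in Fcgr1a, Fcgr2a and Syk, 3 of the 9 genes, against 20.4% of all tested genes. The median log2 change of the 9 genes was -0.35, beside -0.038 over all tested genes. Without non-diabetic replicate 2, Fcgr2a was the only one of the 9 called (adjusted p = 0.0448, limma). In that setting 706 of all 15500 tested genes were called.

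In PRP against diabetic saline ulcers, the contrast that chose the genes, PRP libraries lay wholly above diabetic saline ones in 6 of the 9 genes, Fcgr1a, Fcgr2a, Tyrobp, Cd300lf, Syk and Lilrb4, where 5.79% of all tested genes did. Over all tested genes limma called 0 (0%), with 1021 at an unadjusted p under 0.05. The log2 differences were 2.10 for Lilrb4 (SE 0.60), 1.61 for Fcgr2a (SE 0.31), 1.46 for Tyrobp (SE 0.46), 1.30 for Fcgr2b (SE 0.46), 1.18 for Fcgr3a (SE 0.66), 1.14 for Fcgr1a (SE 0.34), 1.05 for Cd300lf (SE 0.21), 0.45 for Syk (SE 0.24) and -0.55 for Fcer1g (SE 0.35). These values describe how the genes were picked and nothing is read from them. This contrast and the 2 others share libraries, so each gene's differences are not independent of one another.

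**Figure D2:**
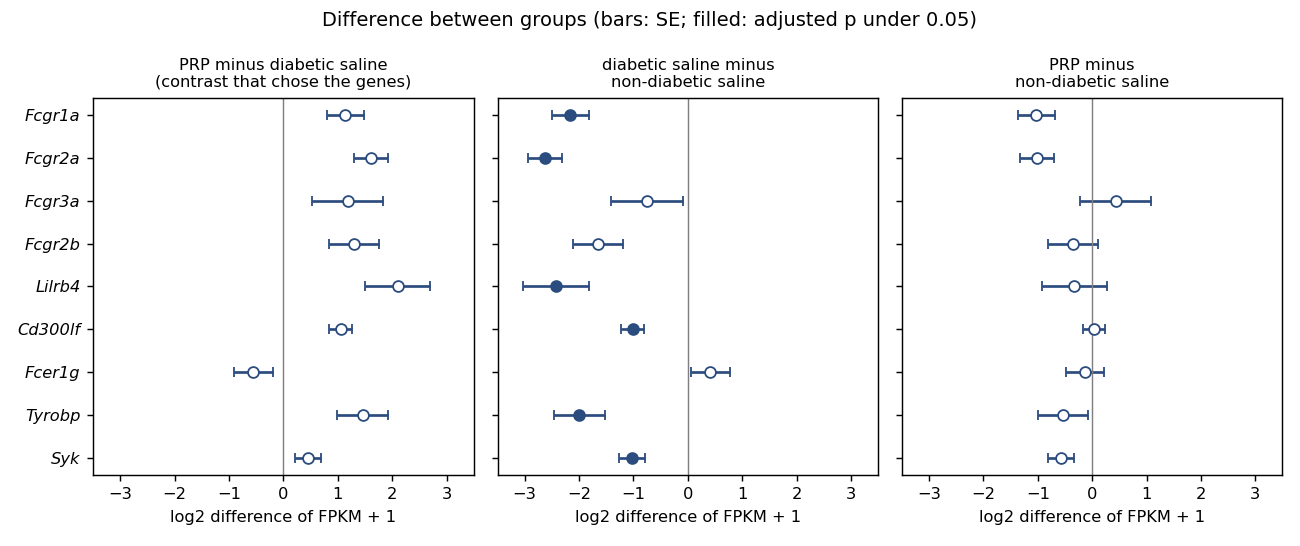
Log2 difference of FPKM + 1 (horizontal axis) of each gene in 3 comparisons, with bars of 1 SE from the fit over 9 libraries. Filled points passed an adjusted p of 0.05, which holds for 6 genes in diabetic saline against non-diabetic ulcers, and the left panel shows the contrast that chose the genes, with no test.

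The ratio of Fcgr2a to the inhibitory Fcgr2b did not overlap between diabetic and non-diabetic ulcers, though no test passed. The FPKM of Fcgr2a over that of Fcgr2b was 3.47, 2.27 and 3.49 in PRP ulcers, 1.72, 3.40 and 2.80 in diabetic saline ulcers and 4.72, 4.50 and 5.02 in non-diabetic ulcers. Every non-diabetic library lay above every diabetic one, with or without PRP. Fcgr2a was among the genes that led to the set, by a contrast of PRP with diabetic saline libraries. The ratio is not independent of that choice. A ratio within a library does not depend on how the library was scaled. On the log2 scale the difference was -0.90 in diabetic saline against non-diabetic ulcers and -0.65 in PRP against non-diabetic ulcers. Each gave p = 0.1 in a two-sided exact permutation test, the smallest value that 3 against 3 libraries allow, and 0.2 when adjusted over the 6 tests of this kind.

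The ratio of Fcgr3a to Fcgr2b showed no such order, with 0.594, 0.098 and 0.289 in PRP ulcers, 0.071, 0.137 and 0.923 in diabetic saline ulcers and 0.165, 0.335 and 0.045 in non-diabetic ulcers. Its exact permutation p was 0.7 for diabetic saline and 0.5 for PRP against non-diabetic ulcers. The 2 ratios rest on genes of one family on chromosome 13 whose reads may be shared.

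**Figure D3:**
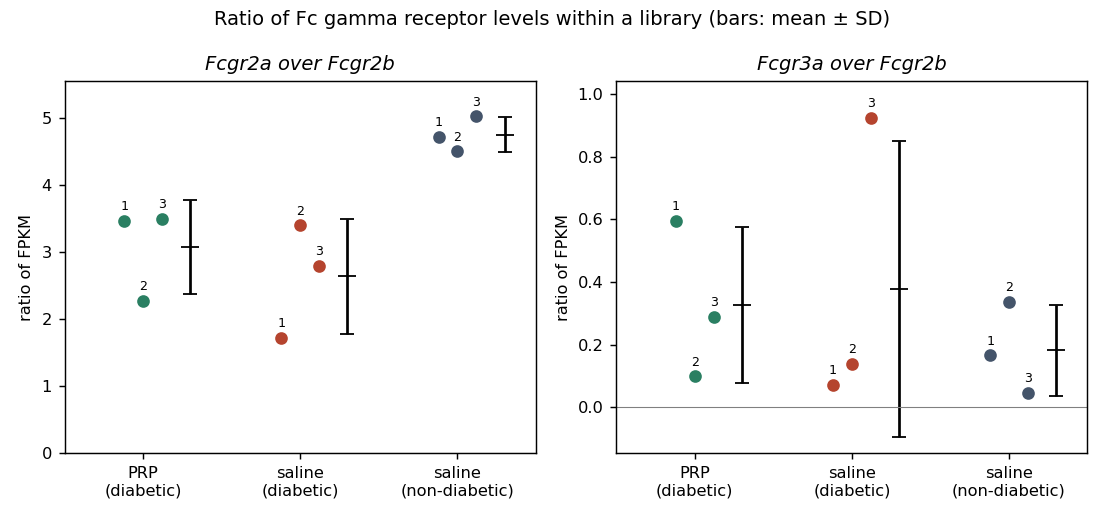
Ratio of FPKM within each library (vertical axis) for Fcgr2a over Fcgr2b and Fcgr3a over Fcgr2b in PRP, diabetic saline and non-diabetic ulcers. Points are libraries with their replicate number and bars the mean ± SD of 3. The non-diabetic libraries, at 4.50 to 5.02, lie above the others for Fcgr2a, and the groups overlap for Fcgr3a.

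Across the 9 libraries 7 of the genes, all but Fcer1g and Fcgr3a, varied together, with Pearson's r on the log2(FPKM + 1) scale from 0.731 for Cd300lf with Syk to 0.971 for Fcgr1a with Fcgr2a. Fcer1g had r of -0.306 to -0.134 with the other genes. Fcgr3a had r of 0.010 with Syk and 0.448 at most, with Cd300lf. The points share the group structure and the tissue makeup of each library, so these values describe the libraries.

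The genes most like the mean of the 9 were Ctsz (r = 0.985), Cd53, Bin2, Coro1a, Ubb, Ptprc, Itgb2 and Ncf1 (r = 0.976) over the 9 libraries. After group means were taken out, r for these 8 genes was 0.906 to 0.970. Igsf6 was closest to Fcgr2a (r = 0.996, and 0.987 after group means were taken out), followed by Susd3 and Ctsz. Closest to Cd300lf were Rab2a, Lemd2 and Plscr2, with r of 0.960 to 0.967.

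Macrophage markers were lower, like most of the set, in diabetic saline against non-diabetic ulcers. In PRP against diabetic saline ulcers, the contrast that chose the genes, their median log2 change was 0.74, beside 1.18 for the 9 genes. Of 15 macrophage markers, all were in the table and 14 were tested, and 9 fell in diabetic saline against non-diabetic ulcers, with a median log2 change of -1.68 over the 14. Their summed level was 1028 to 1975 FPKM in PRP ulcers, 362 to 1553 FPKM in diabetic saline ulcers and 2295 to 3103 FPKM in non-diabetic ulcers. Lyz2 was the largest part of this sum, with means of 784, 265 and 1186 FPKM in these groups. Csf1r, the receptor for the macrophage growth factor, averaged 39.4 ± 6.93 FPKM in PRP ulcers, 32.4 ± 22.7 FPKM in diabetic saline ulcers and 92.8 ± 11.8 FPKM in non-diabetic ulcers (SD, n = 3 each). Vsig4 was the one marker listed at 0 in some library. The mean log2 level of the 9 genes correlated with that of the 14 markers at r = 0.926 over the 9 libraries, which share the group structure.

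The level of the 9 genes was then set against these markers. The mean log2 level of the 9 genes minus that of the markers was -1.09, -0.92 and -1.34 in PRP ulcers, -1.85, -1.17 and -1.12 in diabetic saline ulcers and -1.70, -1.82 and -1.42 in non-diabetic ulcers. All PRP libraries lay above all non-diabetic ones, by 0.53 on average (exact permutation p = 0.1, the smallest possible, and 0.2 adjusted over the 6 tests). Diabetic saline libraries overlapped the non-diabetic ones (difference 0.27, exact permutation p = 0.4). Both comparisons share libraries with the contrast that chose the 9 genes. That choice can favour higher PRP values, so nothing is read from the PRP separation. How far the level of macrophages accounts for the differences of the single genes was not tested.

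**Figure D4:**
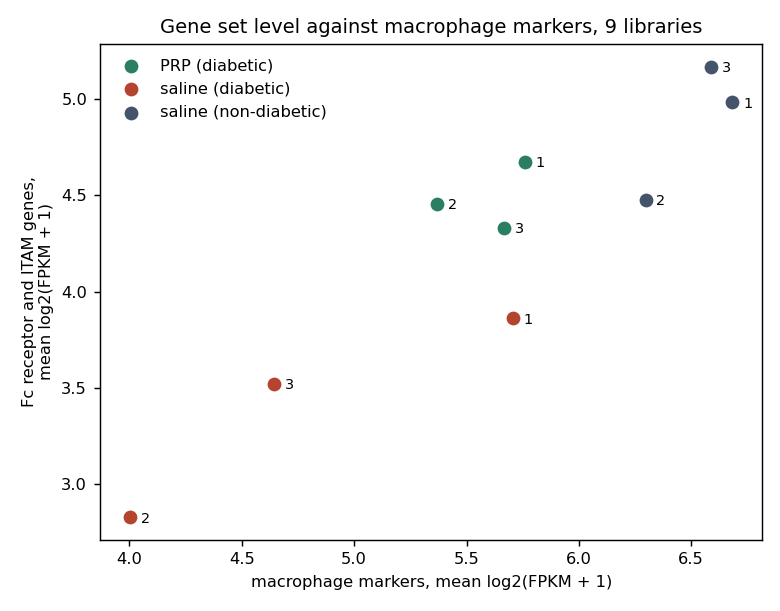
Mean log2(FPKM + 1) of the 9 genes (vertical axis) against that of 14 macrophage markers (horizontal axis) for the 9 libraries, coloured by group and labelled by replicate. Both are lowest in diabetic saline replicate 2, at 2.83 and 4.0, and high in non-diabetic replicates 1 and 3.

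Markers of other cells were lower or higher in diabetic saline against non-diabetic ulcers, depending on the cell type, and no difference between lists was tested. Over all 15600 tested genes 1117 were called and lower in that comparison, and 279 called and higher. Of 12 neutrophil markers 8 were tested and 0 passed in either direction, with 7 of the 8 below 0 and a median log2 change of -1.56. Mpo, Elane, Camp, Ltf and Ngp were listed at 0 in some library. The summed level of the 12 neutrophil markers ran from 267 to 6037 FPKM in PRP ulcers, 65.5 to 348 FPKM in diabetic saline ulcers and 61.5 to 1483 FPKM in non-diabetic ulcers. S100a9 and S100a8 led the highest sum, with 3566 and 2448 FPKM in PRP replicate 2. The sum thus does not stand for the whole list. In PRP against non-diabetic ulcers 5 of the 8 tested neutrophil markers were below 0, with a median log2 change of -0.43. Of 9 mast cell markers 1, Fcer1a, rose in diabetic saline against non-diabetic ulcers and 0 fell (median log2 change 0.46). Their summed levels were 34.2 to 55.9 FPKM in PRP ulcers, 39.4 to 78.0 FPKM in diabetic saline ulcers and 31.2 to 38.1 FPKM in non-diabetic ulcers. In the same comparison 4 of 7 tested B cell markers fell (median -1.10), 2 of 8 of dendritic and Langerhans cells (-0.45), 1 of 7 of T and NK cells (-0.28) and 0 of 3 of platelets (-0.68). Fibroblast markers were all below 0 and 3 of 8 fell, with a median of -1.76, near that of the 9 genes. All 8 skeletal muscle markers and all 15 keratinocyte and hair genes were above 0, with medians of 2.45 and 2.63, and 0 of either list passed in limma. The summed keratinocyte and hair genes were at 5692 to 11820 FPKM in PRP ulcers, 4420 to 10100 FPKM in diabetic saline ulcers and 191 to 4873 FPKM in non-diabetic ulcers. The summed B cell markers were at 29.8 to 132 FPKM in PRP ulcers, 4.93 to 17.3 FPKM in diabetic saline ulcers and 65.8 to 181.0 FPKM in non-diabetic ulcers. Their part in the results was not tested.

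Further genes of the pathway were described from lists chosen with earlier results of these data known. Over all 15600 tested genes 7.16% were called and lower in diabetic saline against non-diabetic ulcers, and no list was tested against that share. Of 36 tested kinases and adaptors downstream of ITAMs, 18 fell and 0 rose in diabetic saline against non-diabetic ulcers, with a median log2 change of -0.96. The Src family kinase Lyn, which phosphorylates ITAMs, averaged 11.7 ± 0.504 FPKM in PRP ulcers, 6.43 ± 2.40 FPKM in diabetic saline ulcers and 29.3 ± 12.3 FPKM in non-diabetic ulcers (log2 change -1.99 in diabetic saline against non-diabetic ulcers, adjusted p = 0.0308). Ncf4, a subunit of the phagocyte oxidase, averaged 11.7 ± 1.10 FPKM in PRP ulcers, 4.6 ± 3.17 FPKM in diabetic saline ulcers and 35.3 ± 15.8 FPKM in non-diabetic ulcers (-2.77). Fyn, another Src family kinase, fell by a log2 change of -1.02, and averaged 16.5 ± 2.14 FPKM in PRP ulcers, 17.9 ± 1.41 FPKM in diabetic saline ulcers and 37.7 ± 8.01 FPKM in non-diabetic ulcers. The adaptor Grb2 fell by a log2 change of -0.88.

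Inhibitors and phosphatases of the pathway were also counted. Of 18 tested, 10 fell and 0 rose in diabetic saline against non-diabetic ulcers (median -0.82), including Csk, which restrains Src family kinases (-0.70), the adaptor Dok2 (-2.25) and the adaptor Sla (-1.79). The list also holds Ptprc (-1.98), the phosphatase CD45, which can activate Src family kinases by removing their inhibitory phosphate. Of 18 tested genes listed as inhibitory myeloid receptors 7 fell and 0 rose (median -1.38). Cd22, among those 7, is also counted with the B cell markers that fell. Cd300a, a relative of Cd300lf, averaged 4.63 ± 2.22 FPKM in PRP ulcers, 1.38 ± 0.793 FPKM in diabetic saline ulcers and 16.4 ± 9.24 FPKM in non-diabetic ulcers (-2.77, adjusted p = 0.0308). Vsir (-1.36), Lilrb3l (-2.61) and Cd200r1 (-1.63) fell with it.

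Of 17 tested receptors that use Fcer1g or Tyrobp, or share their signalling, 4 fell and 0 rose in diabetic saline against non-diabetic ulcers (median -1.53). They were Itgb2 (-2.52) and Itgam (-2.01), the chains of complement receptor 3, Clec4d (-3.32) and Cd300le (-2.12). Trem2, a partner of Tyrobp, had 34.5, 21.1 and 40.7 FPKM in PRP ulcers, 26.4, 3.11 and 8.37 FPKM in diabetic saline ulcers and 37.3, 26.2 and 26.6 FPKM in non-diabetic ulcers, and it did not pass (-1.59, adjusted p = 0.101). Trem2 was chosen after its values were seen. In PRP against non-diabetic ulcers 0 genes of these 4 lists passed in limma.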

How the data were processed

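Gene levels were deposited by the authors as FPKM for 9 libraries, per the name of the table. Per the submitters' processing notes the tools included HISAT2, StringTie, cutadapt and FastQC, and the assembly was GRCm39, of mouse. All 30560 identifiers are rat ones, no source used here names the rat build, and coordinates are those of the table. No sequence is printed, because the reference at hand was of mouse. A deposited count table of lncRNAs was not used.

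FPKM of rows with 1 gene name were summed to 28370 features, and the 15600 with at least 0.5 FPKM in at least 3 libraries were tested as log2(FPKM + 1), with no further scaling. limma-trend (limma 3.58.1, R 4.3.3) was fitted over all 9 libraries with group as its term. Contrasts were two-sided with Benjamini-Hochberg adjustment, and genes with an adjusted p under 0.05 are called. The fit was tried on simulated data with the same spread for every gene and no library standing apart. This does not show how far the calls in the real libraries hold. Errors are SE of that fit, or SD over 3 libraries where marked. Ratios were compared with exact permutation tests (scipy 1.17.1). Fold changes on this scale understate the change of low genes.

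All members were named. From each further list up to 4 genes were named, called ones first and then by mean level, and exceptions are marked. The genes and lists were chosen with earlier results of these data known. Alternatives were size factors, a pseudocount of 0.1, no filter, only the 6 libraries compared, a keratinocyte and hair score as a covariate, the highest row per name, a replicate block, each library left out, and non-diabetic replicates 1 and 3 left out. A further result is not reported here.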

Additional observations from a re-analysis of the deposited data

How the results depend on the processing

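Of all 15600 tested genes 1396 were called in diabetic saline against non-diabetic ulcers, and this count was 861 with size factors and 0 in each of 4 settings, a fit to the 6 libraries of the comparison alone, no filter, the keratinocyte and hair score as a covariate, and the loss of non-diabetic replicates 1 and 3. Leaving out 1 library at a time gave 0 to 3475. In PRP against non-diabetic ulcers the count of 1 became 2 with no filter, 0 when those 6 libraries were fitted alone, with the covariate, with the replicate block or without non-diabetic replicates 1 and 3, and 0 to 706 with 1 library left out. In PRP against diabetic saline ulcers the count of 0 became 1 with size factors or with no filter, and stayed at 0 with any 1 library left out. With the replicate number as a block, 1259 genes and 4 of the 9 described genes were called in diabetic saline against non-diabetic ulcers. The labels do not say that a number marks a shared animal or day. Same-numbered libraries had correlations of deviations from -0.407 to 0.351, 6 of them below 0, so not every library correlated best with its own number. Size factors left 3 of the 9 genes called, Fcgr1a, Fcgr2a and Cd300lf.

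Differences in PRP against non-diabetic ulcers that changed sign were those of genes that were not called. With the keratinocyte and hair score as a covariate they were 0.18 for Fcgr2b, -0.26 for Fcgr3a, 0.185 for Fcer1g, 0.062 for Tyrobp and 0.64 for Lilrb4. Without non-diabetic replicates 1 and 3 they were 0.17 for Fcgr2b, -0.17 for Fcgr3a, 0.34 for Fcer1g and 1.06 for Lilrb4. With 1 library left out they ran from -0.035 to 0.76 for Fcgr3a, -0.53 to 0.12 for Fcer1g, -0.041 to 0.097 for Cd300lf and -1.02 to 0.145 for Lilrb4. The causes were not tested. Read depth is unknown, which limits what can be said of genes near 1 FPKM such as Cd300lf.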

Other observations

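Fc receptors of other antibody classes and cell types did not share one pattern. The alpha chain of the IgE receptor, Fcer1a, known from mast cells and basophils, rose in diabetic saline ulcers. It had 1.52, 1.47 and 1.54 FPKM in PRP ulcers, 1.87, 1.40 and 1.02 FPKM in diabetic saline ulcers and 0.524, 0.581 and 0.632 FPKM in non-diabetic ulcers (log2 change 0.61 in diabetic saline against non-diabetic ulcers, adjusted p = 0.0469). Its beta chain Ms4a2 had 3.97, 3.45 and 1.87 FPKM in PRP ulcers, 3.99, 2.17 and 4.97 FPKM in diabetic saline ulcers and 1.31, 1.58 and 0.686 FPKM in non-diabetic ulcers, and did not pass (log2 change 1.08, adjusted p = 0.0566). The Fc receptor-like genes Fcrl2 (-2.66, adjusted p = 0.0308) and Fcrla (-0.83, adjusted p = 0.0350) fell in diabetic saline against non-diabetic ulcers. Fcgrt, which recycles IgG, missed the threshold (-1.26, adjusted p = 0.0543). Of the 9 tested genes of this list 2 fell and 1 rose, beside 1117 and 279 of all 15600 tested genes. Fcer1a and Ms4a2 are also in the mast cell list, so the rise of Fcer1a is counted in both.

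Trem1 and Clec4e, receptors of activated neutrophils and macrophages chosen here after their values were seen, were high in single libraries. Trem1 had 0.715, 8.35 and 1.10 FPKM in PRP ulcers, 0.709, 0.227 and 0.081 FPKM in diabetic saline ulcers and 6.59, 1.98 and 28.2 FPKM in non-diabetic ulcers. Clec4e had 1.40, 11.8 and 2.23 FPKM in PRP ulcers, 1.11, 0.107 and 0 FPKM in diabetic saline ulcers and 8.68, 1.43 and 32.2 FPKM in non-diabetic ulcers. PRP replicate 2 and non-diabetic replicate 3 led their groups for both genes, and neither gene passed in diabetic saline against non-diabetic ulcers (adjusted p = 0.0703 and 0.0816).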
